A study of Mus musculus with 9 samples.

Results

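The respiratory chain and the ATP synthase are assembled from many small proteins, and the messages of 85 genes for them were followed in the kidney of lean, diabetic and treated diabetic mice. Members were chosen by symbol alone. They are the genes with a single symbol that begins with Nduf, Uqcr, Atp5 or Cox followed by a digit from 4 to 8, together with Sdha, Sdhb, Sdhc and Sdhd. Of 89 symbols that matched, 85 had a mean signal no lower than the 30th percentile over every probe set, 2.65 as log2(intensity + 1), a scale called the log2 level from here on, out of 17740 genes tested in all. The 4 under that limit were Atp5c1-ps (2.02), Cox7b2 (1.84), Cox8c (2.52) and Uqcrh-ps1 (2.18), and the 3 members nearest above it were Cox8b (2.83), Ndufs5 (2.83) and Atp5j2 (3.77). The limit used the mean over all arrays and no difference between groups.

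The 85 genes comprised 32 of complex I, 4 of complex II, 7 of complex III, 17 of complex IV, 17 of complex V and 8 assembly factors of complex I (Ndufaf1 to Ndufaf8), which help to build the complex and are not part of it. Ndufa4 and Ndufa4l2 keep a name of complex I from their history and were counted with complex IV, where their proteins sit. A further 8 symbols that match the rule, Uqcr10, Ndufs6, Ndufs6b, Cox6c, Ndufb4, Ndufb4b, Ndufb4c and Ndufb2, lay only on probe sets that carry several gene symbols and were not used here. Of the members, 76 had 1 probe set with a single symbol and 9 had more. The brightest of these stood for the gene. Ndufs1, Uqcrb and Ndufs5 also lay on probe sets with several symbols, which were not used. That of Ndufs5 had a mean log2 level of 5.94, above the 2.83 of the probe set used.

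All mice were male, 20 weeks old and of the C57BLKS/J strain. The db/m mice carry a single copy of the leptin receptor mutation db and are lean. The db/db mice carry it on both chromosomes, lack a working long form of the receptor in every tissue, and become obese and diabetic. One db/db group received saline. The other, db/db+TSF, was given the herbal medicine Tang-shen Formula (TSF), which comes from Chinese practice, through a gavage tube for 12 weeks at 2.4 g/kg/day. The labels give 9 mice for each db/db group. RNA of the kidney was measured on 3 Affymetrix arrays per group, labelled as biological replicates. Whether an array holds 1 mouse or a pool is not stated, nor is any treatment of the db/m mice. Array medians lay between 10.3 and 11.2 intensity units, no pair of arrays shared more than 70 identical values, and the small number of arrays limits the precision. The tissue matched its label: the 12 proximal tubule markers looked at were all bright, the dimmest at a mean log2 level of 10.77.

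The chain works in the inner mitochondrial membrane. Complex I takes electrons from NADH and complex II from succinate, complex III passes them to cytochrome c, and complex IV hands them to oxygen. Complexes I, III and IV pump protons as they do so, and the ATP synthase, complex V, lets the protons flow back and makes ATP. A small share of the subunits is encoded in mitochondrial DNA and the rest in the nucleus. Kidney tubules, above all the proximal tubule, are crowded with mitochondria because solute reabsorption runs on ATP, and changes in mitochondrial respiration are a recurrent subject of work on diabetic kidney disease.

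Many nuclear genes of the chain share short promoter motifs, among them those of the factors NRF-1, GABP, YY1, Sp1 and ERR. In the RefSeq promoter table of build GRCm38.p6, 71 of the 85 members had 76 promoter windows, each of 250 bases before and 50 after a transcript start. Both strands were searched for the letters of each motif. NRF-1 (GCATGCGC) was found in 15.8% of the members' windows against 2.71% of all 32851 windows, GABP (CCGGAAG, an ETS motif) in 25.0% against 8.86%, YY1 (AAGATGGC) in 13.2% against 2.75%, Sp1 (GGGCGG) in 44.7% against 35.7% and ERR (CAAGGTCA) in 5.26% against 1.56%. Printed here is the promoter of Cox6b2, the 1 member past the threshold in any comparison. Beside it are those of Cox6b1, the widely used isoform of the same subunit, and Ndufa6, the member of smallest p in db/db against db/m. Each is the 250 bases before the start, 5′ to 3′ on the strand of the gene, with motif matches in capitals. They lie at chr7:4753095-4753344 (minus strand), chr7:30626115-30626364 (minus strand) and chr15:82354292-82354541 (minus strand). The Cox6b2 match is Sp1, 193 bases before the start. That of Cox6b1 is GABP at 28 bases, on the opposite strand, and that of Ndufa6 is NRF-1 at 83 bases. The promoters of Cox5b and Cox7b, also named below, held no match to any of these motifs and are not printed. A match is a run of letters and not a shown binding site.
Cox6b2: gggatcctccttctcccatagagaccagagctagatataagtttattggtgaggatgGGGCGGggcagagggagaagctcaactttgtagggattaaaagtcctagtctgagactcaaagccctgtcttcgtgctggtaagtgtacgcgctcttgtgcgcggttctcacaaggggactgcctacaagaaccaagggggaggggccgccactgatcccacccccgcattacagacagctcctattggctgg
Cox6b1: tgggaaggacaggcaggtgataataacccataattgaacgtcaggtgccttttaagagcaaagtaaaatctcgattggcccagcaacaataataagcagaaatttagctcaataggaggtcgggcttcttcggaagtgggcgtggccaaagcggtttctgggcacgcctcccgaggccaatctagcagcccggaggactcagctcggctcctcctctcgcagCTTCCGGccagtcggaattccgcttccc
Ndufa6: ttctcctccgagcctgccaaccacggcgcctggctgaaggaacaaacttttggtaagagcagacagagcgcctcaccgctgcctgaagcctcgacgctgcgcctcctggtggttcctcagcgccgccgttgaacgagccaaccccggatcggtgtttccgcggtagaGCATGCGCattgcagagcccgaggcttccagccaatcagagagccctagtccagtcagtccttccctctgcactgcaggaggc

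Few genes passed the threshold, among the members or in all, and counts of 0 or 1 in 85 say little about the members. In db/db against db/m, 0 of the 85 genes passed an adjusted p of 0.05 in limma (Benjamini-Hochberg adjustment over all genes), where 1.05% of the 17740 genes did (0.592% higher and 0.462% lower). Between db/db+TSF and db/db 0 of 85 passed, as did 0% of all genes. Against db/m 1 of 85 (1.18%) rose in db/db+TSF, Cox6b2, and 0 fell, where 3.13% of all genes passed (1.22% higher and 1.92% lower). In bulk tissue, fewer cells of a type and less RNA per cell cannot be told apart.

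Unadjusted p-values under 0.05 were counted as well. For db/db against db/m 6 members (7.06%) were under it, all above 0, against 13.9% of all genes (8.15% above 0 and 5.79% below). For db/db+TSF against db/db 4 members (4.71%) were, 3 above 0 and 1 below, against 11.7% of genes (4.98% above and 6.74% below). For db/db+TSF against db/m 12 (14.1%) were, all above 0, against 17.2% of genes (7.56% above and 9.63% below). The share of members was below that of all genes in each comparison when both directions are taken, and above it for higher values in db/db+TSF against db/m.

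The intervals give a range for the difference in array signal, for each gene on its own. For db/db against db/m the 95% interval of the log2 difference lay within ±0.5 for 75 of 85 members and within ±1 for 84, all but Cox6a2. For db/db+TSF against db/db it lay within ±0.5 for 73 and within ±1 for all 85. For db/db+TSF against db/m the numbers were 68 and 84, the exception being Cox7b. The distance from the estimate to either end of the interval had a median of 0.24 for the members and 0.25 for all genes. Of the 17740 genes tested, the interval lay within ±0.5 for 13477, 13997 and 13125 in these comparisons, in the same order. It lay within ±1 for 17332, 17473 and 17220. The SD within a group had a median of 0.13 over the members and 0.14 over all genes tested. Fold changes on the log2(intensity + 1) scale understate those of dim genes.

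**Figure D1:**
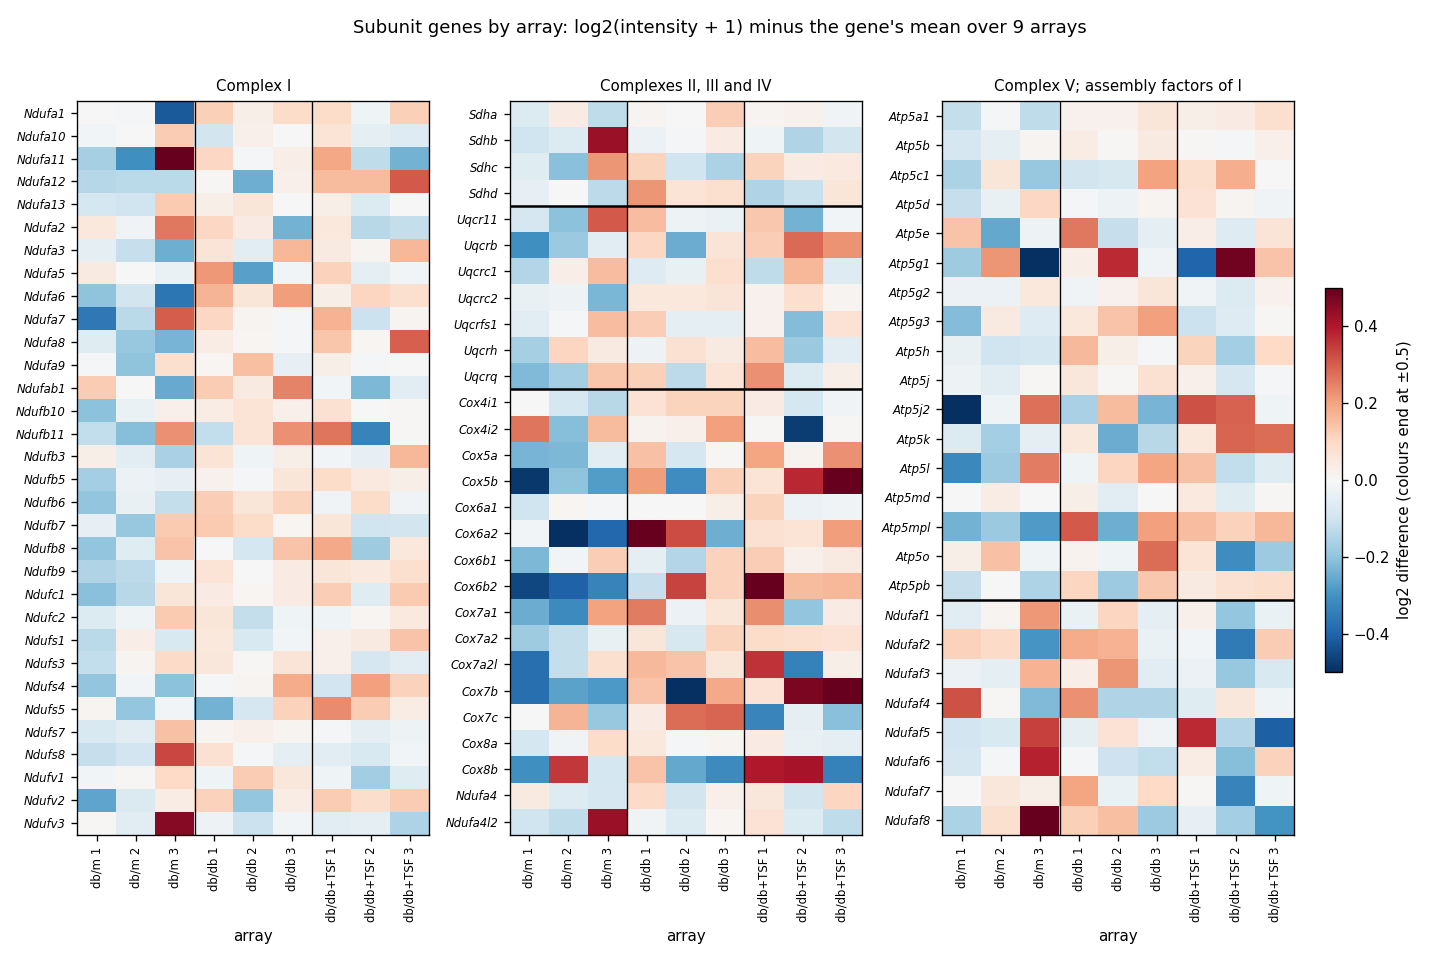
Log2 level of each of the 85 genes on each of the 9 arrays minus the gene's mean over the 9 arrays (colour; colours end at ±0.5), with genes in rows by complex and arrays in columns. Deep colours that follow the groups are seen in Cox5b, Cox7b and Cox6b2 of complex IV, while others, as in Ndufa11, Ndufaf8 and Atp5g1, come from single arrays.

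Small differences leaned upward in db/db. Of 85 members 65 (76.5%) lay above 0 in db/db against db/m, where 52.2% of all genes did. The median log2 difference was 0.07 for the members and 0.01 for all genes. By complex, 25 of 32 members of complex I lay above 0 (median 0.08), 2 of 4 of complex II (0.03), 5 of 7 of complex III (0.04), 15 of 17 of complex IV (0.18), 15 of 17 of complex V (0.08) and 3 of 8 assembly factors (-0.05). Single db/m arrays moved these values. Without db/m replicate 1 the median was 0.04 for complex I (21 of 32 above 0) and -0.02 for complex III (3 of 7), and without db/m replicate 3 it was 0.13 (28 of 32) and 0.09 (7 of 7). Complex II had 4 of 4 above 0 without db/m replicate 3 (0.08). Complex IV had the highest median, 0.13 to 0.18 with any 1 array left out. With quantile normalization 12 of the 17 complex IV members lay above 0 (median 0.16).

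The treated and untreated db/db groups showed no such lean. Of 85 members 37 (43.5%) lay above 0, close to the 43.9% of all genes, and both medians were -0.02. With each array shifted to a common median the members above 0 were 16 of 85 and those of all genes 30%, with a median of -0.08 for both. Relative to db/m, 53 (62.4%) lay above 0 in db/db+TSF where 50% of genes did, with medians of 0.06 and 0. Shifting arrays to a common median gave 47 of 85 (55.3%) against 39.5% of genes. The 3 comparisons share arrays, so their lists are not independent of each other.

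**Figure D2:**
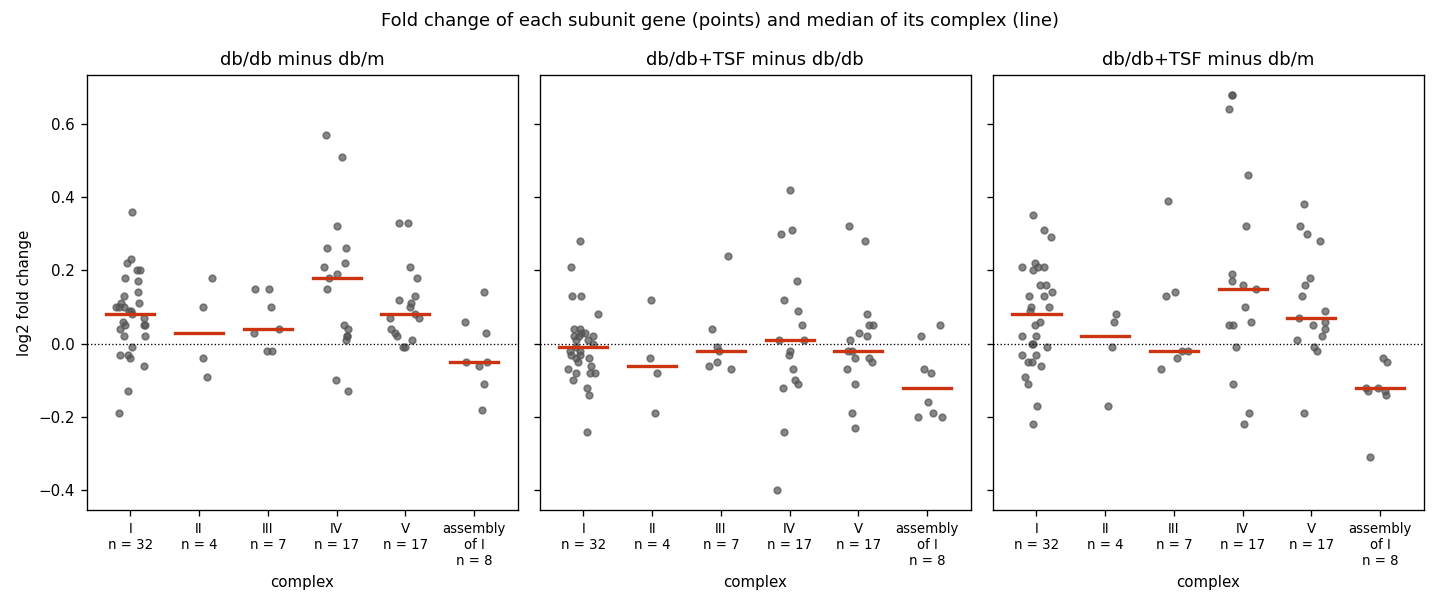
Log2 fold change (vertical axis) of each member (points) and the median of its complex (red line) in the 3 comparisons, with complexes I to V and the assembly factors of complex I along the horizontal axis. The median of complex IV is 0.18 in db/db minus db/m, 0.01 in db/db+TSF minus db/db and 0.15 in db/db+TSF minus db/m.

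Members whose 3 arrays did not overlap between groups give another view. In db/db against db/m, 15 members (17.6%) were higher in every db/db array than in every db/m array, where 10.4% of all genes were, and 0 were lower in every array, where 8.28% of genes were. The 15 were Ndufa1, Ndufa6, Ndufa8, Ndufb5, Ndufb6, Ndufb9, Ndufb10, Ndufs4, Sdhd, Uqcrc2, Cox4i1, Cox6b2, Atp5a1, Atp5g3 and Atp5h. Between the treated and untreated db/db arrays 2 members (Ndufa12 and Uqcrb) were higher throughout (2.35% against 7.81% of genes). Another 7 were lower throughout (8.24% against 12.3%): Ndufab1, Ndufs7, Sdhd, Cox4i1, Cox4i2, Cox7c and Atp5g3. Of the members, 21 (24.7% against 9.76%) were higher throughout in db/db+TSF than in db/m and 1, Ndufv1, lower (1.18% against 12.4%).

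The db/m arrays were spread unevenly over the members. Replicate 1 of db/m was the lowest of the 9 arrays at 28 of 85 members (32.9%), and at 15.1% of all genes. Replicate 3 of db/m was the highest at 22 members (25.9%, against 20% of genes) and the lowest at 15 (17.6%, against 17.9%). The median deviation of the members from their own mean was -0.09, -0.05 and 0.01 on the db/m arrays, 0.06, 0 and 0.04 on the db/db arrays and 0.05, -0.04 and 0.02 on the db/db+TSF arrays. The groups overlapped for the whole set. Without db/m replicate 1 the members above 0 in db/db against db/m were 56 of 85, and without db/m replicate 3 they were 77.

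**Figure D3:**
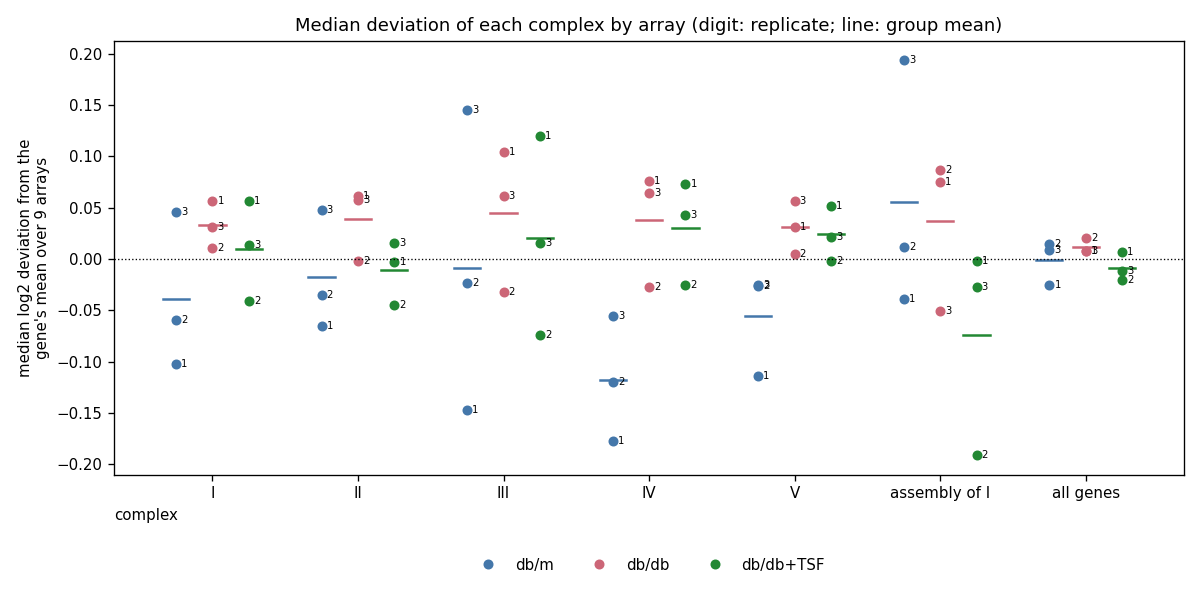
Median deviation of each complex on each array from the genes' own means over 9 arrays (vertical axis, log2 units; points with the replicate number beside them; lines are group means of 3 arrays). For complex IV the db/m arrays lie at -0.18, -0.12 and -0.06, below the other 6 arrays, which lie between -0.03 and 0.08. For complex V the db/m arrays also lie below the other 6, at -0.11, -0.03 and -0.03 against 0 to 0.06. The groups overlap for complexes I, II and III.

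Complex I, NADH dehydrogenase, has a core that binds NADH, flavin and iron-sulfur clusters, and many accessory subunits around it. Ndufs1, the large iron-sulfur subunit, averaged 8.40 ± 0.09, 8.45 ± 0.06 and 8.54 ± 0.06 in db/m, db/db and db/db+TSF (log2 level, SD, n = 3). Ndufv1, which binds NADH and flavin, averaged 10.53 ± 0.06, 10.56 ± 0.07 and 10.42 ± 0.08, and its treated arrays lay below all db/m arrays (-0.11, limma adjusted p = 0.566). Ndufv2, an iron-sulfur core subunit beside it, averaged 10.14 ± 0.15, 10.23 ± 0.16 and 10.36 ± 0.02, with treated arrays above all db/m arrays (0.21, limma adjusted p = 0.348). Neither difference passed.

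Among the accessory subunits, Ndufa6, of the LYR family of accessory proteins, measured 9.02, 9.13 and 8.86 in db/m, 9.39, 9.28 and 9.43 in db/db and 9.25, 9.33 and 9.30 in db/db+TSF. All db/m arrays lay below the other 6. The difference of db/db from db/m was 0.36 (SE 0.09; limma adjusted p = 0.102, not passing) and that of db/db+TSF from db/db was -0.07 (interval -0.28 to 0.13). Ndufb6, a membrane arm subunit, measured 8.25, 8.41 and 8.33, then 8.57, 8.51 and 8.56, then 8.43, 8.54 and 8.43. Its db/db arrays were above all db/m arrays (0.22, limma adjusted p = 0.287).

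Ndufa12, an accessory subunit at the base of the peripheral arm, measured 8.20, 8.21 and 8.21 in db/m, 8.35, 8.10 and 8.37 in db/db and 8.50, 8.50 and 8.65 in db/db+TSF. The treated arrays lay above all others. The difference was 0.28 against db/db (limma adjusted p = 0.327) and 0.35 against db/m (0.0888), neither passing. A second, dimmer probe set of Ndufa12 gave -0.07 and -0.20 in the same comparisons. Ndufa8, an accessory subunit with disulfide bonds, averaged 9.70 ± 0.09, 9.87 ± 0.02 and 10.01 ± 0.15 (0.31 in db/db+TSF against db/m, limma adjusted p = 0.129), and its dimmer probe set also gave 0.31.

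On the other side, Ndufv3, a small subunit next to Ndufv1, measured 6.92, 6.86 and 7.37 in db/m, 6.89, 6.81 and 6.90 in db/db and 6.86, 6.87 and 6.76 in db/db+TSF. Its largest value is that of db/m replicate 3 alone. The difference was -0.19 for db/db and -0.22 for db/db+TSF against db/m (limma adjusted p = 0.549 and 0.415). Ndufab1, the mitochondrial acyl carrier protein, measured 6.0, 5.87 and 5.62, then 6.0, 5.92 and 6.12, then 5.86, 5.65 and 5.82. Its treated arrays lay under all db/db arrays (-0.24, limma adjusted p = 0.448). Ndufa2 (-0.13) and Ndufa10 (-0.06) were next by p among complex I members below 0 in db/db against db/m and did not pass. Ndufa11 averaged 9.42 ± 0.43, 9.46 ± 0.06 and 9.36 ± 0.22, and its SD in db/m came from replicate 3 at 9.92.

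The 8 assembly factors leaned downward in db/db+TSF against db/m. There 0 of 8 lay above 0 (median -0.12, range -0.31 to -0.04), where 50% of all genes did, and 0 of the 8 passed. Ndufaf8 measured 6.04, 6.28 and 6.70 in db/m, 6.32, 6.35 and 6.02 in db/db and 6.16, 6.03 and 5.90 in db/db+TSF, with overlapping groups (-0.31 in db/db+TSF against db/m, limma adjusted p = 0.358). Ndufaf6 gave -0.18 in db/db against db/m (limma adjusted p = 0.599). On db/db+TSF replicate 2, 5 of the 8 were at their lowest of the 9 arrays. Their median deviation was -0.19 on that array and 0.19 on db/m replicate 3, and between -0.05 and 0.09 on the others. Medians without either array are not given here.

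Complex II, succinate dehydrogenase, is shared with the tricarboxylic acid cycle and is wholly encoded in the nucleus. Sdha, which holds the flavin and the succinate site, averaged 10.79 ± 0.08, 10.89 ± 0.06 and 10.85 ± 0.02. Sdhb, the iron-sulfur subunit, measured 8.34, 8.37 and 8.87 in db/m, 8.41, 8.43 and 8.48 in db/db and 8.42, 8.29 and 8.35 in db/db+TSF, and its difference of -0.17 in db/db+TSF against db/m was 0 without db/m replicate 3. The membrane anchor Sdhd measured 9.73, 9.77 and 9.64 in db/m, 9.99, 9.84 and 9.85 in db/db and 9.62, 9.66 and 9.83 in db/db+TSF. Its db/db arrays lay above every array of the other groups. The differences were 0.18 for db/db against db/m and -0.19 for db/db+TSF against db/db (limma adjusted p = 0.429 and 0.457). These share the db/db arrays, and neither passed. The other anchor, Sdhc, gave 0.12 in db/db+TSF against db/db (interval -0.14 to 0.38).

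Complex III, the cytochrome bc1 complex, passes electrons from ubiquinol to cytochrome c. Its core protein Uqcrc1 averaged 10.56 ± 0.15, 10.54 ± 0.08 and 10.54 ± 0.16, and Uqcrfs1, the Rieske iron-sulfur protein, 7.72 ± 0.11, 7.70 ± 0.10 and 7.64 ± 0.16. Neither moved beyond its spread. Uqcrc2, the second core protein, measured 11.04, 11.05 and 10.85 in db/m and 11.13, 11.13 and 11.14 in db/db (0.15, limma adjusted p = 0.471), with 11.10, 11.16 and 11.09 in db/db+TSF. Uqcrb, a small ubiquinone-binding subunit, stood apart from these. It measured 10.74, 10.86 and 10.99 in db/m, 11.15, 10.80 and 11.11 in db/db and 11.17, 11.33 and 11.27 in db/db+TSF. The treated arrays lay above all others, by 0.24 against db/db (limma adjusted p = 0.446) and 0.39 against db/m (SE 0.11; 0.101). Uqcrh, the hinge protein, gave -0.06 in db/db+TSF against db/db, and 0.01 without db/db+TSF replicate 2.

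Complex IV, cytochrome c oxidase, has a core encoded in mitochondrial DNA and nuclear subunits, several of which exist as a widely used form and a form typical of muscle, lung or testis. It held the 1 gene that passed. Cox6b2, known as the testis isoform of subunit 6B, measured 5.78, 5.83 and 5.90 in db/m, 6.12, 6.57 and 6.35 in db/db and 6.76, 6.39 and 6.40 in db/db+TSF. All db/m arrays lay below the other 6, and the db/db and db/db+TSF arrays overlapped. It rose by 0.68 in db/db+TSF against db/m (SE 0.13, 1.60-fold; limma adjusted p = 0.0221). In db/db against db/m the difference was 0.51 (SE 0.13; 0.107), while between db/db+TSF and db/db it was 0.17 (interval -0.12 to 0.47; 0.636), neither passing. The call held in 15 of 19 alternative fits (adjusted p 0.0145 to 0.0783). It was lost without db/m replicate 1 (0.0783), db/m replicate 2 (0.0588), db/db+TSF replicate 1 (0.0616) or db/db+TSF replicate 3 (0.0537).

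The widely used isoform Cox6b1, whose promoter is printed above, measured 8.92, 9.13 and 9.27 in db/m, 9.10, 9.00 and 9.26 in db/db and 9.27, 9.17 and 9.19 in db/db+TSF. Its groups overlapped throughout, and the interval of db/db+TSF against db/m was -0.14 to 0.34. The difference between the isoforms' differences was not tested.

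Cox5b, a subunit on the matrix side, measured 9.53, 9.81 and 9.73 in db/m, 10.22, 9.70 and 10.13 in db/db and 10.08, 10.39 and 10.51 in db/db+TSF. Every treated array was above every db/m array, by 0.64 on average (SE 0.15; limma adjusted p = 0.0511, just not passing). It passed in 8 of 19 alternative fits (adjusted p 0.0309 to 0.188), among them those without db/db replicate 2 (0.0309) or db/db+TSF replicate 1 (0.0433). Cox7b, a small membrane subunit, had nearly the same pattern: 9.93, 10.04 and 10.02, then 10.45, 9.81 and 10.50, then 10.38, 10.78 and 10.87. It differed by 0.68 in db/db+TSF against db/m (SE 0.18; 0.0717) and by 0.42 against db/db (0.405), and passed in 3 of 19, with the 6 arrays compared alone (0.0373) and on leaving out db/db replicate 2 (0.025) or db/db+TSF replicate 1 (0.0497). In both genes db/db replicate 2 was the lowest of its group. That array is not part of db/db+TSF against db/m and enters only through the spread estimated over all arrays. Without it the differences stayed at 0.64 and 0.68.

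The second probe sets of these genes did not show that difference from db/m. A dimmer probe set of Cox5b, at 3.89 to 4.35, gave -0.10 in db/db+TSF against db/m, and one of Cox7b, at 3.76 to 4.60, gave 0.04. In db/db+TSF against db/db these dimmer probe sets gave -0.19 and -0.24. With the mean of both probe sets the difference was 0.27 for Cox5b (adjusted p = 0.188) and 0.36 for Cox7b (0.24). Genes of this complex are known for processed pseudogene copies, and whether probes also match such copies was not tested.

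**Figure D4:**
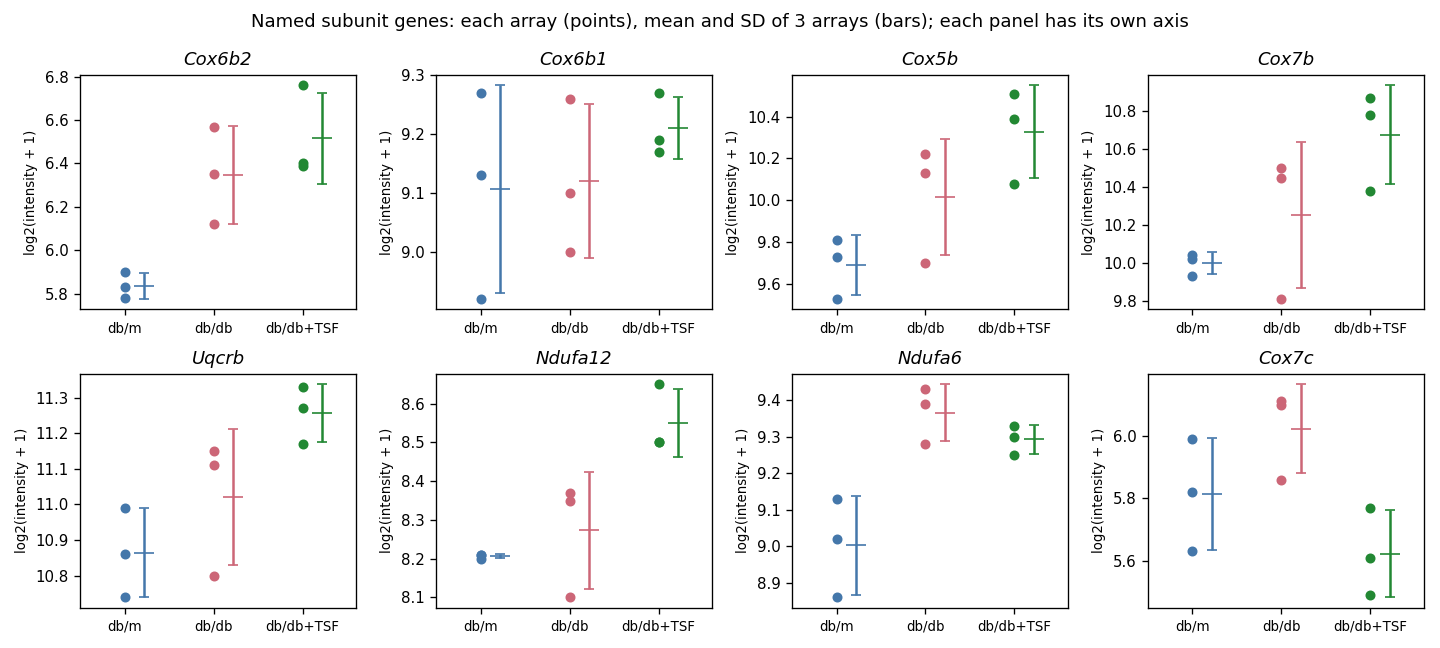
Log2 level of 8 named genes on each array (points) with the mean and SD of 3 arrays (bars), by group; each panel has its own vertical axis, which does not start at 0. In Cox6b2 the db/m arrays lie at 5.78 to 5.90 and all others at 6.12 or above, while the arrays of Cox6b1 overlap between groups.

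Other complex IV genes did not pass, though some groups were apart. Cox5a, a core-binding subunit, averaged 7.92 ± 0.10, 8.11 ± 0.12 and 8.24 ± 0.11, and its treated arrays lay above all db/m arrays (0.32, limma adjusted p = 0.129). Cox4i1, the main form of subunit 4, averaged 10.06 ± 0.07, 10.24 ± 0.02 and 10.12 ± 0.06, and its db/db arrays lay above those of both other groups (limma adjusted p = 0.375 against db/m). The lung and hypoxia-linked isoform Cox4i2 averaged 5.68 ± 0.25, 5.70 ± 0.11 and 5.46 ± 0.28, with treated arrays below all db/db arrays. Ndufa4 averaged 9.61 ± 0.07, 9.66 ± 0.10 and 9.66 ± 0.10, and its hypoxia-linked relative Ndufa4l2 averaged 5.29 ± 0.32, 5.19 ± 0.04 and 5.17 ± 0.10. The sign of Ndufa4l2 in db/db against db/m (-0.10) turned to 0.09 without db/m replicate 3 and to 0.01 with array weights.

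The heart and muscle isoforms were read beside the muscle markers Ckm, Acta1, Myh7, Tnni3, Myl2 and Tnnt3, which were all dim and summed to 76 to 78 intensity units for db/m, 70 to 74 for db/db and 74 to 80 in db/db+TSF. Cox6a2, the muscle form of subunit 6A, measured 5.41, 4.80 and 5.03 in db/m, 6.01, 5.75 and 5.18 in db/db and 5.50, 5.49 and 5.63 in db/db+TSF. Its db/db arrays overlapped those of db/m (0.57, SE 0.20; limma adjusted p = 0.226), and the treated arrays lay above db/m (0.46; 0.264). The widely used Cox6a1 averaged 12.01 ± 0.06, 12.05 ± 0.01 and 12.06 ± 0.07. Cox7a1, the muscle form of subunit 7A, averaged 7.40 ± 0.28, 7.62 ± 0.15 and 7.54 ± 0.21. Its liver-type partner Cox7a2 averaged 9.84 ± 0.07, 9.99 ± 0.10 and 10.04 ± 0.01, and Cox7a2l, which takes part in supercomplexes, 5.92 ± 0.23, 6.18 ± 0.05 and 6.08 ± 0.35. Cox8a averaged 11.63 ± 0.09, 11.66 ± 0.03 and 11.62 ± 0.05, whereas muscle-type Cox8b was dim at 2.82 ± 0.34, 2.68 ± 0.25 and 2.99 ± 0.43.

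Cox7c ran against Cox7b. This membrane subunit measured 5.82, 5.99 and 5.63 in db/m, 5.86, 6.10 and 6.11 in db/db and 5.49, 5.77 and 5.61 in db/db+TSF. All treated arrays lay under all db/db arrays. The difference was -0.40 (SE 0.12; limma adjusted p = 0.284), the smallest adjusted p of any member in db/db+TSF against db/db, and it did not pass.

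Complex V, the ATP synthase, joins a catalytic head to a rotor in the membrane. Its catalytic beta subunit Atp5b averaged 12.03 ± 0.05, 12.10 ± 0.02 and 12.07 ± 0.01, and the alpha subunit Atp5a1 11.04 ± 0.07, 11.15 ± 0.02 and 11.17 ± 0.02. The highest log2 level of any probe set was 12.77, so Atp5b lies near the top of the scale, where an array can compress differences. The rotor ring is made of subunit c, which 3 genes encode. Atp5g1 averaged 4.06 ± 0.44, 4.40 ± 0.21 and 4.35 ± 0.44, and Atp5g2 11.02 ± 0.05, 11.04 ± 0.04 and 11.00 ± 0.05. Atp5g3 measured 8.98, 9.24 and 9.13 in db/m, 9.25, 9.34 and 9.40 in db/db and 9.09, 9.13 and 9.20 in db/db+TSF. Its db/db arrays lay above all others, by 0.21 against db/m (limma adjusted p = 0.349), and db/db+TSF differed from db/db by -0.19 (0.459).

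Small membrane subunits gave the other differences of complex V. Atp5mpl measured 7.21, 7.26 and 7.16 in db/m, 7.75, 7.20 and 7.65 in db/db and 7.60, 7.56 and 7.61 in db/db+TSF (0.38 in db/db+TSF against db/m; limma adjusted p = 0.15). The treated arrays lay above all db/m arrays, and db/db replicate 2 was at the level of db/m. That array is not part of db/db+TSF against db/m and enters only through the spread estimated over all arrays. Without it Atp5mpl passed there (limma adjusted p = 0.0473), with the difference unchanged at 0.38. Atp5k, subunit e, measured 8.02, 7.92 and 8.04, then 8.14, 7.84 and 7.95, then 8.14, 8.38 and 8.37. Treated arrays were above all db/m arrays and overlapped those of db/db, with differences of 0.32 against db/db (0.317) and 0.30 against db/m (0.167). Atp5o, of the stalk that holds the head, gave -0.23 in db/db+TSF against db/db and -0.19 against db/m (0.476 and 0.474).

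Probe sets of 5 of the 9 members with several disagreed in direction in at least 1 comparison: Ndufa11, Ndufa12, Atp5e, Cox5b and Cox7b. Atp5e, the epsilon subunit, gave 0.06 in db/db+TSF against db/m and 0.41 on its dimmer probe set. Atp5d, the delta subunit, gave 0.04 and 0.42. The median of complex V in that comparison was 0.07 with the brightest probe set and 0.13 with the mean of all probe sets of a gene.

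The subunits encoded in mitochondrial DNA are transcribed inside the organelle by other enzymes. Of 13 such genes 10 were on the array, all but COX2, ATP6 and ATP8. In db/db against db/m 9 of 10 lay above 0 (median 0.08). In db/db+TSF, 10 of 10 lay above 0 against db/db (0.08) and against db/m (0.18). Of all genes 52.2%, 43.9% and 50% lay above 0 in these comparisons. The db/db+TSF arrays had medians over all probe sets of 3.54, 3.61 and 3.57 in log2 level, against 3.5, 3.51 and 3.53 in db/db. Some differences from db/db were as small as 0.02 (ND4) and 0.04 (ND5). A count for these genes with arrays shifted to a common median is not given here. Of the 10, 0 passed in each comparison. Their summed intensity was 39668 to 44009 for db/m, 42859 to 46077 for db/db and 45985 to 47561 for db/db+TSF, and 9 of the 10 genes lie near the top of the intensity scale. ND2, a complex I subunit, measured 11.93, 11.98 and 11.86 in db/m, 12.01, 11.98 and 12.09 in db/db and 12.11, 12.20 and 12.16 in db/db+TSF. Every treated array was above all others (0.23 against db/m, limma adjusted p = 0.176).

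ND6, the 1 subunit encoded on the light strand, was dim and differed from the rest. It measured 3.45, 3.34 and 3.72 in db/m, 3.53, 3.46 and 3.22 in db/db and 4.01, 3.86 and 4.10 in db/db+TSF. The treated arrays lay above all 6 others. The difference was 0.59 against db/db (SE 0.12; limma adjusted p = 0.233) and 0.48 against db/m (0.0637), neither passing. Against db/m it passed in 2 of 19 alternative fits (adjusted p 0.0191 to 0.211), 1 of them without db/m replicate 3 (0.0375).

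**Figure D5:**
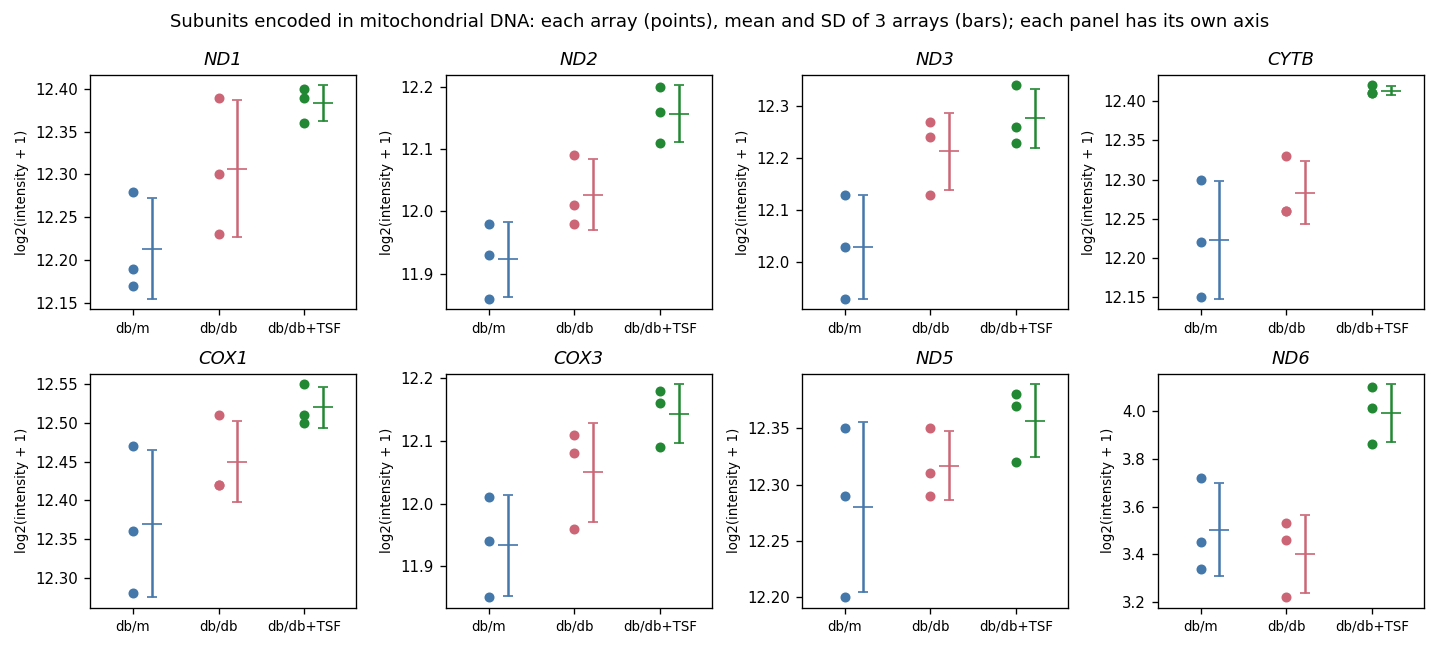
Log2 level of 8 subunit genes of mitochondrial DNA on each array (points) with the mean and SD of 3 arrays (bars), by group; each panel has its own vertical axis, which does not start at 0. The db/db+TSF arrays lie highest on average in every panel, and ND6 is separated from the other groups at 3.86 to 4.10.

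Genes that build, feed and regulate the chain were read from fixed lists. Of 43 other assembly factors and electron carriers, 0 passed in the comparisons with db/db arrays, and 1 fell in db/db+TSF against db/m. The medians were 0.03, -0.06 and -0.06, in the order db/db against db/m, then db/db+TSF against db/db, then db/db+TSF against db/m, which the other lists keep. The gene that fell was Acad9, needed to assemble complex I, at 7.42, 7.46 and 7.46 in db/m, 7.22, 7.19 and 7.07 in db/db and 7.21, 6.95 and 6.91 in db/db+TSF. It fell by 0.42 (SE 0.10; limma adjusted p = 0.0465) with db/m above all other arrays. The call held in 7 of 19 alternative fits (0.0287 to 0.175) and was lost without any single array other than db/db+TSF replicate 1. Cox15, a heme A synthase needed for complex IV, averaged 8.43 ± 0.08, 8.08 ± 0.09 and 8.14 ± 0.00 (-0.35 in db/db against db/m, limma adjusted p = 0.0936). Coa3, a complex IV assembly factor, averaged 9.92 ± 0.13, 9.90 ± 0.12 and 9.56 ± 0.09.

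Among 21 regulators of mitochondrial biogenesis 1 passed, in db/db+TSF against db/m. Ppara, a fatty acid sensing nuclear receptor, measured 7.65, 7.82 and 7.65 in db/m, 8.29, 7.98 and 7.71 in db/db and 8.24, 8.55 and 8.47 in db/db+TSF. It rose by 0.72 (SE 0.14; limma adjusted p = 0.0239), a call not kept without db/m replicate 1 (0.0806), db/m replicate 3 (0.0665), db/db+TSF replicate 2 (0.0916) or db/db+TSF replicate 3 (0.0898). The coactivator gene Ppargc1a averaged 9.39 ± 0.14, 9.58 ± 0.05 and 9.57 ± 0.07. Nrf1, the gene of the factor whose motif stands in the Ndufa6 promoter, averaged 5.49 ± 0.09, 5.57 ± 0.10 and 5.58 ± 0.03. The mitochondrial DNA packaging gene Tfam averaged 5.81 ± 0.09, 5.98 ± 0.20 and 6.02 ± 0.03. The medians of the list were 0.08, -0.01 and 0.08.

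Other mitochondrial genes were near the members in size. Of 22 genes of import, chaperones, carriers and membrane shape 0 passed (medians 0.05, 0.02 and 0.06). The ADP/ATP carrier Slc25a4 averaged 9.19 ± 0.14, 9.45 ± 0.12 and 9.57 ± 0.08. Of 16 genes of the tricarboxylic acid cycle 0 passed (0.06, 0.01 and 0.04), though 14 lay above 0 in both comparisons with db/m. Idh3a, a subunit of isocitrate dehydrogenase, averaged 8.32 ± 0.10, 8.65 ± 0.17 and 8.54 ± 0.08.

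Among 10 genes of uncoupling and alternative electron input, Prodh2, a mitochondrial enzyme of hydroxyproline breakdown that feeds electrons to the chain, measured 7.16, 7.49 and 7.16 in db/m, 8.0, 8.22 and 7.88 in db/db and 8.03, 8.38 and 7.95 in db/db+TSF. Compared with db/m it rose by 0.76 in db/db and by 0.85 with TSF (SE 0.14; limma adjusted p = 0.0317 and 0.0108). Leaving out db/m replicate 1 (0.106) or 3 (0.088), or any 1 of the db/db arrays, ended the first call (0.0588 to 0.0991 for the latter), and the second held in all 19 alternative fits. The medians of this list were 0.12, 0.04 and 0.09.

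Of 7 hypoxia targets tied to the chain, Pdk1, the kinase that shuts pyruvate dehydrogenase, measured 6.06, 6.18 and 5.81 in db/m, 6.92, 6.79 and 7.31 in db/db and 7.04, 6.92 and 6.97 in db/db+TSF. It rose by 0.99 and 0.96 against db/m (SE 0.14; limma adjusted p = 0.00794 and 0.00557), calls that held in all 19 alternative fits. The size did not: with the mean of the 2 probe sets of Pdk1 the differences were 0.60 and 0.53 (adjusted p up to 0.0347), and without any 1 array they were 0.84 or more. Ndufa4l2 and Cox4i2, the members on this list, did not pass in any comparison. The medians of the list were 0.25, -0.04 and 0.19, and Pdk1 was the only 1 of the 7 to pass.

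Marker sums of some cell types differed between the groups, and their part in the subunit results was not tested. The 12 proximal tubule markers, of the cells richest in mitochondria, summed to 30416 to 33013 intensity units for db/m, 31976 to 33798 for db/db and 33641 to 34734 in db/db+TSF. Of them 0 passed (medians 0.06, 0.07 and 0.09). The 10 genes marking the distal tubule and the loop of Henle, also rich in mitochondria, summed to 8580 to 9172, 10432 to 11674 and 10543 to 11629. All 10 lay above 0 in db/db against db/m (median 0.31), where 1 rose (Calb1, 0.68), and in db/db+TSF against db/m 2 rose (Pvalb, 0.53; Calb1, 1.04; median 0.32). The 9 collecting duct markers summed to 2157 to 2501, 2626 to 2925 and 2476 to 2851 (medians 0.22, 0.03 and 0.23) and the 5 podocyte markers to 677 to 770, 795 to 853 and 853 to 922 (0.21, 0.02 and 0.27), with 0 past the threshold in either list. The 6 endothelial markers summed to 2016 to 2097, 2021 to 2164 and 2005 to 2038 (-0.05, -0.09 and -0.16; 0 past it).

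Immune markers ran lower. The 7 macrophage markers summed to 549 to 593, 445 to 545 and 354 to 446 (medians -0.21, -0.30 and -0.56), and 4 fell in db/db+TSF against db/m. The 5 lymphocyte markers summed to 78 to 93, 51 to 62 and 54 to 62 (-0.72, -0.02 and -0.57), and against db/m 1 fell in the db/db group and 2 in the treated group. Each of these marker calls was lost without at least 1 array, except that of Calb1 in db/db+TSF against db/m. The neutrophil markers summed to 35 to 39 both in db/m and in db/db+TSF, and reached 155 on 1 db/db array, with medians over 5 tested genes of 0.62, -0.66 and 0.09. The adipocyte markers, with those of brown fat, summed to 566 to 855, 427 to 950 and 392 to 541, and their medians over 7 tested genes were -0.20, 0.14 and -0.15. The muscle list had medians of -0.13, 0.07 and 0. Neither of these lists, nor that of neutrophils, had a gene past the threshold, and Ucp1, the uncoupling protein of brown fat, stayed dim at 3.08 ± 0.12, 2.92 ± 0.22 and 2.93 ± 0.08.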

How the data were processed

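Kidney RNA of 3 groups of mice was measured on Affymetrix arrays. The authors deposited linear intensity values, 1 per probe set and array. The submitters' processing notes name Transcriptome Analysis Console and Expression Console, both of Affymetrix. How background was corrected and how probes were normalized and summarized is not given in the sources used here. Of 41345 probe sets, 23521 had 1 gene symbol in the platform annotation, 1814 had several and 16010 had none, and only the first kind was used (22180 genes). Intensities were transformed as log2(value + 1). The brightest probe set stood for a gene, and genes dimmer than the 30th percentile of the array were left out, which left 17740. limma 3.58.1 in R 4.3.3 (lmFit and eBayes) fitted the means of the 3 groups to all 9 arrays together, with Benjamini-Hochberg adjustment over all genes and a threshold of 0.05. Adjusted p-values, standard errors and 95% intervals of single genes come from this fit. The fit was tried on simulated data for db/db against db/m, with noise drawn for each gene on its own. No shift shared across an array was simulated, so rates in the real data may differ. On the simulated data it called 41.8% of log2 differences of 0.5, 86.6% of 1 and 95.5% of 2, with 4 false calls. Differences of 0.5 or less can thus go uncalled. For 3 arrays against 3 a permutation test of 1 gene cannot go below 0.1, so none was used.

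Genes were named by rule: members past the threshold, or the 5 of smallest p in a direction where not as many passed; the 2 of smallest p per complex; core subunits; isoform families; members whose probe sets disagree; and 2 genes of smallest p per other list. Per-array values are given for those the results turn on, and genes of non-overlapping groups and cell type markers were named after their values were seen. The members and the lists were chosen with earlier results of these data known, and no test was made over a list. No red cell marker was found under 1 symbol on the array. Symbols of mitochondrial DNA genes follow RefSeq. Alternatives covered the probe set, the filter, scaling between arrays, the pseudocount, the variance model, weights of arrays, a fit of the compared groups only, a block for replicate number, the threshold and leaving out each array.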

Additional observations from a re-analysis of the deposited data

How the results depend on the processing

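Between db/db and either other group, 0 members passed in any alternative fit tried. In db/db+TSF against db/m the members past the threshold were 2 with a filter at the 50th percentile, quantile normalization, a pseudocount of 8 or array weights (Cox6b2 and Cox5b), 3 with an intensity trend and robust settings (with Uqcrb) or with the 6 arrays compared alone (with Cox7b), and 4 at a threshold of 0.10. Leaving out 1 array gave 0 to 4: 0 without db/m replicate 1, db/m replicate 2 or db/db+TSF replicate 3, 2 without db/db+TSF replicate 1 and 4 without db/db replicate 2. Over all genes the calls at a threshold of 0.10 were 442 for db/db against db/m and 1012 for db/db+TSF against db/m. Leaving out 1 array gave 72 to 194 in the first, under 187 by over 1.5 times without any db/m array, any db/db array or db/db+TSF replicate 3, and 213 to 563 in the second, lower than 556 by over 1.5 times without db/m replicates 1 or 2 or db/db+TSF replicates 2 or 3. Shifting arrays to a common median moved the medians of db/db+TSF against db/db to -0.08 for all members, -0.07 for complex I, -0.12 for complex II, -0.05 for complex IV and -0.08 for complex V, and those of db/db+TSF against db/m to 0.01 for all members, -0.02 for complex II and 0.03 for complex V. It is a shift applied to whole arrays. The mean of all probe sets moved the last of these to 0.13. Without 1 array the median of complex II in db/db against db/m was 0.01 to 0.08, that of complex V was 0.06 to 0.12 there and -0.04 to 0.02 in db/db+TSF against db/db, and that of complex IV in db/db+TSF against db/m was 0.05 to 0.18. Medians that also changed sign without 1 array were those of complex III in db/db against db/m (-0.02 to 0.09) and in db/db+TSF against db/m (-0.09 to 0.07), and, for db/db+TSF against db/db, those of all members (-0.04 to 0.02), complex I (-0.04 to 0.02), III (-0.04 to 0.03) and IV (-0.04 to 0.05). Complex I ran from 0.04 to 0.13 in db/db against db/m and from 0.03 to 0.13 in db/db+TSF against db/m, lowest without db/m replicate 1 and highest without db/m replicate 3. Of 1615 fits of 85 named results, 1564 kept direction and side of the threshold, 25 lost and 22 gained a call, and 4 changed sign: Ndufa4l2 in db/db against db/m (0.01 with array weights, and 0.09 without db/m replicate 3 in a range of -0.19 to 0.09), Uqcrh in db/db+TSF against db/db (0.01 without db/db+TSF replicate 2, range -0.15 to 0.01) and Sdhb in db/db+TSF against db/m (0 without db/m replicate 3, range -0.26 to 0). The cause was not tested. For core and isoform genes given by level, 76 of 1384 fits changed sign, with a size of at most 0.19 after the change, and 0 passed. Pairing of arrays by replicate number was not seen, though so few arrays cannot settle it. Deviations of same-numbered arrays correlated between -0.08 and 0.15 over 9 pairs, and 3 of 9 arrays correlated best with their own number. The fit with the replicate number as a block called 137 genes in db/db against db/m, kept Cox6b2 (0.048) and lost Acad9 (0.0693). Detection calls are not used here, and a dim level cannot be told from background.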
